A study of Mus musculus with 5 samples.

Results

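Bulk RNA-seq was examined for 10 genes that code for steroid-converting enzymes, chosen by symbol from the deposited table of 24527 genes. They comprised the 5α-reductase genes Srd5a1, Srd5a2 and Srd5a3, the 17β-hydroxysteroid dehydrogenase genes Hsd17b4, Hsd17b10, Hsd17b11 and Hsd17b12, the steroid sulfatase gene Sts, and the cytochrome P450 genes Cyp11a1 and Cyp17a1. Of these, 9 had a row in the table, 8 passed the filter on low counts and were tested, and Sts was not analysed here. The libraries came from prostate tumors of TripleTg mice, 3 of them castrated and 2 intact. All 5 mice carried a human HGF transgene expressed ubiquitously, and a human MET transgene and a stabilized allele of β-catenin that the probasin-driven Cre (PBCre) turns on in prostatic epithelia. Castration was done at 4 months, and mice of both groups were studied at 8 months of age. No group without the transgenes or with normal prostate was among these libraries. The libraries held 28015507, 18951782 and 20492061 counts in castrated replicates 1 to 3, and 21560355 and 22853501 in intact replicates 1 and 2.

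Androgens are made from cholesterol in the testis, and in some species in the adrenal gland, and are converted further within the prostate. CYP11A1 cuts the side chain of cholesterol in mitochondria, and CYP17A1 takes the resulting steroids towards androgen precursors. Enzymes of the 17β-hydroxysteroid dehydrogenase family interconvert steroids with a keto or a hydroxyl group at that carbon, and 5α-reductases turn testosterone into dihydrotestosterone, the most potent natural androgen. Castration removes testicular androgen, and conversion of other steroids inside the tumor is a known route by which human prostate cancer can regain androgen signaling. Several members of these families owe their name to sequence similarity and have a main role in lipid metabolism, so that a transcript level is not a measure of steroid conversion.

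The promoters of the members are shown because the isozymes differed widely in transcript level. RefSeq windows of GRCm38.p6, each 300 bases long with 250 bases before and 50 after the transcription start, matched 7 of the 9 members in the table. Windows for Hsd17b4 and Cyp17a1 were not used here. Promoters are printed 5′ to 3′ on the strand of the gene, for the low Srd5a2, the intermediate Srd5a1 and the abundant Hsd17b11, with matches to the GC box (GGGCGG) and the CCAAT box (CCAAT), on either strand, in capitals. The Srd5a1 window lies at chr13:69611414-69611713, that of Srd5a2 at chr17:74047811-74048110 and that of Hsd17b11 at chr5:104021747-104022046, all on the minus strand.
Srd5a1: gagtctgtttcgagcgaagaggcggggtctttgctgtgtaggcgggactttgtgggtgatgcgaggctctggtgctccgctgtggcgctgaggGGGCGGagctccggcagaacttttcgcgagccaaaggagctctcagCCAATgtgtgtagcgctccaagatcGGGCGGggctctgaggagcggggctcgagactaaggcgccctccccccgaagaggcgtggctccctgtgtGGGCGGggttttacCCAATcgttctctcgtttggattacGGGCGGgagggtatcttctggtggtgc
Srd5a2: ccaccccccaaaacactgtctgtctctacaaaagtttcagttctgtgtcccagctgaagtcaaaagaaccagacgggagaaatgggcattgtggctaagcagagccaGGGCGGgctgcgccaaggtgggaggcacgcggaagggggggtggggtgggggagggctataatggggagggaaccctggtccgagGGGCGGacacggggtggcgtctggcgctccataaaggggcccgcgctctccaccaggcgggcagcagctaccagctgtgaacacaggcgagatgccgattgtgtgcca
Hsd17b11: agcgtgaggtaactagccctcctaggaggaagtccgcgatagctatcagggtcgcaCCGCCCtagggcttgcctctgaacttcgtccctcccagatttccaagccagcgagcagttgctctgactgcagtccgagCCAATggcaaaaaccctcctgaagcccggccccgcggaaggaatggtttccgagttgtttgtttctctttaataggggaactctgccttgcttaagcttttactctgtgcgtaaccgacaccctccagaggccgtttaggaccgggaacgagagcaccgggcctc

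The Srd5a1 window held 4 GC boxes and 2 CCAAT boxes, that of Srd5a2 2 GC boxes and 0 CCAAT boxes, and that of Hsd17b11 1 of each. All 7 windows contained at least 1 GC box, a sequence found in 35.7% of the 32851 promoter windows of the mouse. CCAAT occurred in 5 of the 7, against 37.4% of all windows. The TATA box letters TATAAA, found in 13.6% of all windows, were in none of the 7, which says only that these letters are not in these windows. The windows held between 7 CpG dinucleotides (Cyp11a1) and 26 (Srd5a3), where the median window held 7 with an interquartile range of 3 to 20. Srd5a2 with 15 CpGs had 0.672 TPM (counts divided by gene length and scaled to the same sum in each library) on average, and Hsd17b10, also with 15, had 143.

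Before the enzymes are compared, 2 libraries need to be described because they differ from the others of their group. Castrated replicate 3 carried a large amount of hepatocyte transcripts. All 14 hepatocyte markers, a list chosen after values were seen, were detected in it, with a summed level of 34995 TPM, against 88.2 and 9.25 TPM in castrated replicates 1 and 2 and 20.9 and 8.81 TPM in intact replicates 1 and 2. Alb, the most abundant of them, codes for serum albumin and had 284121 counts in castrated replicate 3 and 1393, 36, 258 and 15 in the others in the same order. Apoa1, Fga, Fgb, Fgg, Serpina1a, Apob and Fabp1 were at 0 counts in castrated replicate 2, and Fga, Serpina1a, Apob and Gc were at 0 in intact replicate 2. The liver expresses many steroid-converting enzymes, and the part of these transcripts in the values of castrated replicate 3 was not tested.

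Intact replicate 2 had by far the highest sum of prostate secretory transcripts. The 10 prostate secretory markers summed to 1283 TPM there, against 2.95 TPM in intact replicate 1 and 6.58, 8.02 and 12.7 TPM in castrated replicates 1 to 3. Tgm4, the secretory transglutaminase and the most abundant marker, had 907 TPM in intact replicate 2 and at most 0.357 TPM elsewhere. Cyp2b10, the only marker of this list that was tested, was lowest in intact replicate 2, with 3.38, 7.06 and 10.6 TPM in castrated and 2.49 and 2.12 TPM in intact libraries, and made up most of the sums of the other 4 libraries. Msmb was at 0 in all 5 libraries, and Sbp, Spinkl and 9530002B09Rik were at 0 in every library but intact replicate 2. Pbsn, whose promoter drives Cre in these mice, had 112 counts in intact replicate 2, 13 and 5 in castrated replicates 1 and 3, and 0 in castrated replicate 2 and intact replicate 1. The 2 intact libraries thus differed from each other in the marker of their own tissue, while the epithelial markers, led by Krt18, were abundant throughout, with sums of 5605, 5169 and 5975 TPM in castrated and 8644 and 4150 TPM in intact libraries. The fold changes of the 8 enzymes tested are therefore given with and without castrated replicate 3 and intact replicate 2. In bulk tissue, fewer cells of a type and less RNA per cell cannot be told apart.

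**Figure D1:**
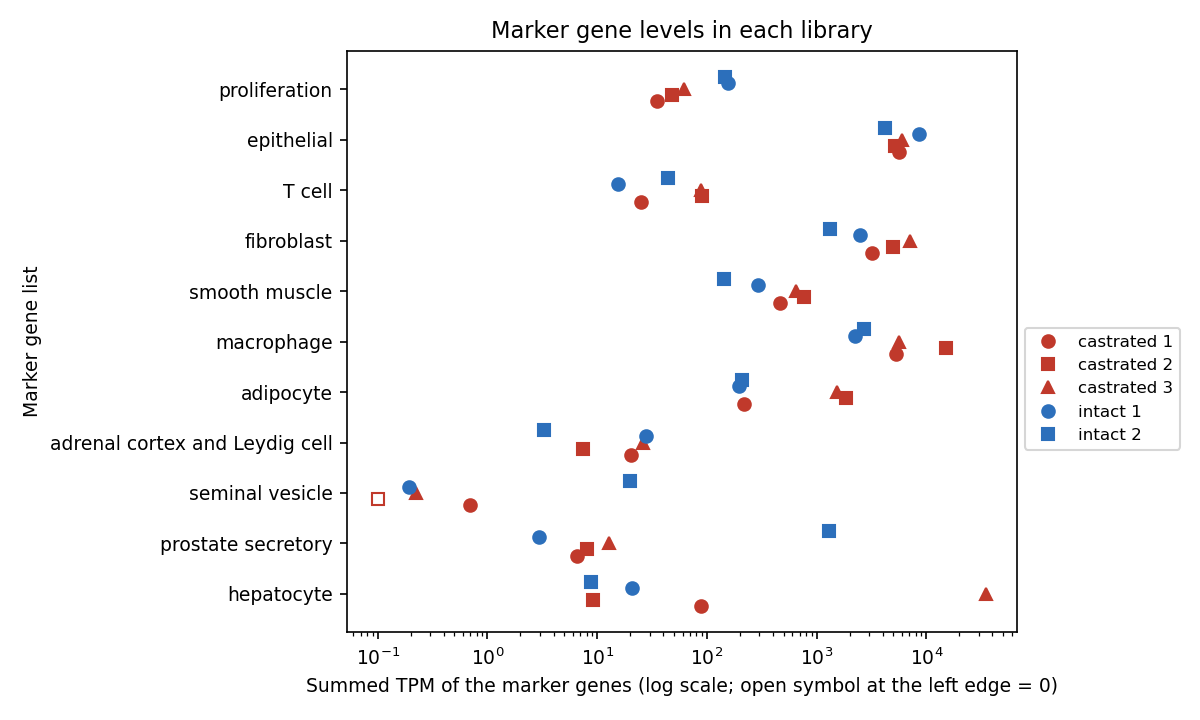
Summed TPM of marker gene lists (rows) in each of the 5 libraries, on a log axis, with castrated and intact libraries in different colors. The hepatocyte list stands at 34995 TPM in castrated replicate 3 and at or below 88.2 TPM in the other libraries, and the prostate secretory list at 1283 TPM in intact replicate 2 and at or below 12.7 TPM elsewhere.

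In transcript level, the enzymes formed a series of abundant 17β-hydroxysteroid dehydrogenases, intermediate 5α-reductases, and rare members. Averaged over the 5 libraries, Hsd17b12 had 199 TPM, Hsd17b10 143, Hsd17b11 133, Hsd17b4 84.7, Srd5a3 37.5, Srd5a1 23.6, Cyp11a1 2.31, Cyp17a1 0.828 and Srd5a2 0.672 TPM. Hsd17b12 was higher than 94.9% of the genes tested and Srd5a1 than 52.9%, whereas Cyp11a1 was higher than 10.1% and Srd5a2 than 1.83%. The steps from Hsd17b11 down to Hsd17b4, to Srd5a3, to Srd5a1 and to Cyp11a1 were each present in 5 of 5 libraries. Hsd17b12 was above Hsd17b10 in 4 of 5 libraries, and Hsd17b10 above Hsd17b11, Cyp11a1 above Cyp17a1 and Cyp17a1 above Srd5a2 in 3 of 5, so that the order of these neighbours varied between mice.

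**Figure D2:**
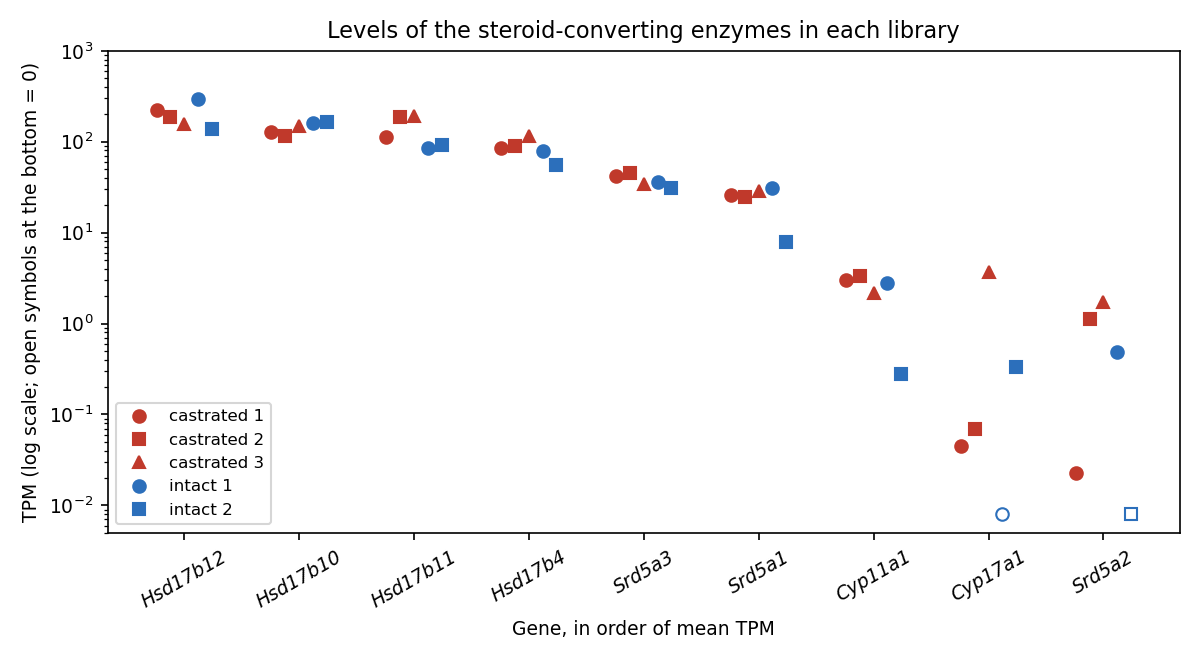
TPM of the 9 enzymes in the table, from the most to the least abundant, on a log axis with 1 point per library. The 4 17β-hydroxysteroid dehydrogenases lie at 55.3 TPM or above in every library, and Srd5a2 and Cyp17a1 span from 0, drawn at the lower edge, to 1.72 and 3.70 TPM.

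Castrated and intact tumors were compared across all genes with edgeR's quasi-likelihood test, for genes above 1 CPM (counts scaled to library size) in at least 2 libraries. None of the 8 members tested had an adjusted p under 0.05 (Benjamini-Hochberg, over all genes) with an absolute log2 fold change above 1, and 0% of the 14612 genes tested did. Without adjustment, 2079 genes (14.2%) and 0 of the 8 members had a p under 0.05, 8.29% of all genes being higher in castrated tumors and 5.93% lower. DESeq2 and edgeR's likelihood ratio test called 989 and 369 genes, none of them a member, and limma voom called 0. Of the 8 members, 6 had a positive log2 fold change, as had 47.9% of all genes tested, and their median was 0.43, beside -0.03 for all genes. Srd5a2 passed the filter only through castrated replicates 2 and 3, which favoured a positive value, so the count and median are given as a description. On CPM, 2 members (Hsd17b4 and Hsd17b11) were higher in every castrated than in every intact library, which 17.8% of all genes were, and 1 (Hsd17b10) was lower, as were 15.3%. On TPM the same 3 members did not overlap, beside 20.5% of all genes higher and 10.7% lower, and on TMM-scaled CPM Hsd17b4 and Hsd17b10 did not, beside 17% and 16.1%. When 1 library was left out, the members with an unadjusted p under 0.05 were Hsd17b11 without castrated replicate 1 (beside 15.6% of all genes), Srd5a1 and Cyp11a1 without intact replicate 1 (21.9%), and none without castrated replicate 2 (7.01%), castrated replicate 3 (6.51%) or intact replicate 2 (13.6%). With 2 intact mice that differed from each other, the 95% intervals were wide, and those of all 8 members held 0.

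**Figure D3:**
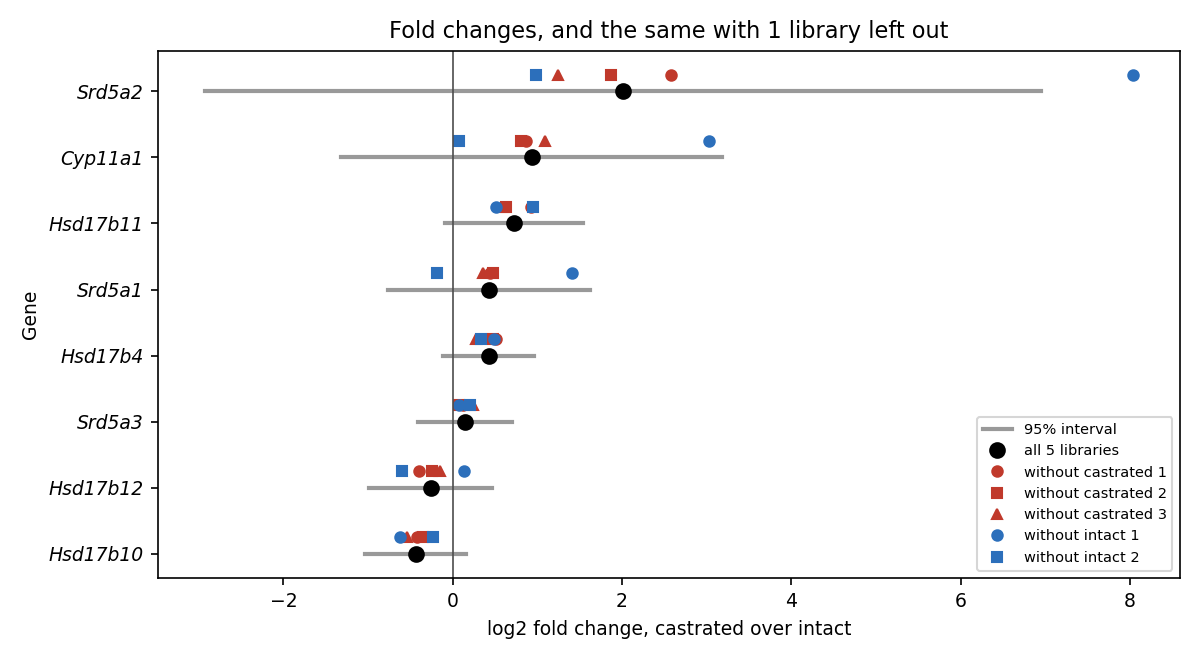
Log2 fold change of castrated over intact tumors for the 8 enzymes tested. Bars are approximate 95% confidence intervals derived from the edgeR fit, and colored symbols the fold change without each of the 5 libraries in turn. Every interval includes 0, Srd5a1 and Hsd17b12 change sign when 1 intact library is left out, and the value of Srd5a2 without intact replicate 1 is set by a library with 0 counts.

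Among the 5α-reductases, Srd5a1, the isozyme of many tissues that is often raised in castration-resistant prostate cancer, lies at chr13:69573449-69611463 on the minus strand (mm10). It had 30.02, 27.3 and 32.9 CPM in castrated replicates 1 to 3, and 34.3 and 10.8 CPM in intact replicates 1 and 2. A single library, intact replicate 2, was low, and intact replicate 1 was the highest of all 5. The means were 30.1 ± 2.78 (SD, n = 3) and 22.5 ± 16.6 CPM (SD, n = 2), and the log2 fold change was 0.43 ± 0.47 (SE, adjusted p = 0.709, edgeR). Leaving out castrated replicate 3 gave 0.36, leaving out intact replicate 2 gave -0.19, and leaving out intact replicate 1 gave 1.41, so that the direction depended on which intact mouse was used. Intact replicate 2 is the library with the highest sum of secretory markers, and their part in the low value was not tested. An annotated noncoding transcript of the same strand, Gm17108, shares 477 bases with Srd5a1 and has no row in the table.

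Srd5a2 (chr17:74014891-74047860, minus strand), the isozyme that dominates in normal prostate, where stromal cells are a known site, was close to the limit of detection. Its raw counts were 1, 32 and 55 in castrated replicates 1 to 3, and 16 and 0 in intact replicates 1 and 2, which correspond to 0.0357, 1.69 and 2.68 CPM and to 0.742 and 0 CPM. The count of 0 in intact replicate 2 allows up to 0.131 CPM (3 counts of that library, counting error only). Libraries of both groups were near 0, and castrated replicate 3 held 52.9% of all Srd5a2 counts. A processed transcript of the annotation, CT025731.1, shares 146 bases with Srd5a2 and has no row in the table. The log2 fold change was 2.01 ± 1.95 (adjusted p = 0.671, edgeR), was 1.25 without castrated replicate 3 and 0.98 without intact replicate 2, and its 95% interval ran from -2.93 to 6.95. Fibroblast markers, led by Dcn, summed to 3209, 5007 and 7018 TPM in castrated and 2465 and 1315 TPM in intact libraries, and smooth muscle markers, led by Tagln, to 461, 770 and 641 TPM and to 289 and 142 TPM. All markers of both lists, 10 each, were detected in all 5 libraries, and the part of stromal content in the Srd5a2 values was not tested.

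Srd5a3 (chr5:76140273-76155503, plus strand) codes for the polyprenol reductase needed for protein N-glycosylation and was the steadiest member on CPM. Its values were 31.9, 33.0 and 26.3 CPM in castrated and 26.5 and 27.5 CPM in intact libraries, and the highest was 1.26 times the lowest. Castrated replicate 3 lay below both intact libraries, so the groups overlapped. The log2 fold change was 0.14 ± 0.22 with a 95% interval from -0.41 to 0.70 (adjusted p = 0.790, edgeR). It was 0.24 without castrated replicate 3, 0.20 without intact replicate 2, and 0.07 without either castrated replicate 2 or intact replicate 1. Summed over the 3 isozymes, 5α-reductase transcripts had 67.5, 70.8 and 64.8 TPM in castrated replicates 1 to 3, and 67.1 and 38.7 TPM in intact replicates 1 and 2. Srd5a1 made up 38.4%, 34.9% and 44.2% of this sum in castrated and 45.8% and 20.6% in intact libraries, Srd5a2 at most 2.66%, and Srd5a3 the larger share in each of the 5 libraries.

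Hsd17b11 showed the largest fold change among the abundant 17β-hydroxysteroid dehydrogenases. It lies at chr5:103989765-104021796 on the minus strand and codes for an enzyme that sits on lipid droplets and can oxidize 5α-androstanediol. Castrated replicates 1, 2 and 3 had 83.6, 130.7 and 138 CPM, and intact replicates 1 and 2 had 61.0 and 78.9 CPM. Every castrated library was above both intact libraries, but castrated replicate 1 was nearer to intact replicate 2 than to the other castrated libraries. With edgeR's TMM library scaling, castrated replicate 1 had 81.7 and intact replicate 2 had 83.8 CPM, and the groups overlapped. Means were 118 ± 29.7 and 69.9 ± 12.6 CPM (SD), with a log2 fold change of 0.72 ± 0.32 (95% interval -0.09 to 1.53, adjusted p = 0.381, edgeR). The value was 0.59 without castrated replicate 3 and 0.95 without intact replicate 2.

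Adipocyte markers, among other lists, were highest in castrated replicates 2 and 3, as was Hsd17b11. The 12 markers, all in the table, summed to 218, 1834 and 1536 TPM in castrated replicates 1 to 3, and to 197 and 211 TPM in intact replicates 1 and 2. Fabp4, which macrophages and endothelial cells also express, was the most abundant, Lep was at 0 in castrated replicate 1 and in both intact libraries, and Cfd in both intact libraries. Adipoq and Cidec were at 0 in intact replicate 1, and Plin1 and Retn in intact replicate 2. Castrated replicates 2 and 3 were thus high in both the adipocyte list and Hsd17b11. The fibroblast, smooth muscle, T cell and neuroendocrine sums were also highest in these libraries, so the pattern was not particular to adipocytes. T cell markers, for example, summed to 90.3 and 88.8 TPM there and to at most 44.2 TPM elsewhere. Macrophage markers, all 12 detected throughout and led by Lyz2, summed to 5319, 15187 and 5669 TPM in castrated and to 2225 and 2693 TPM in intact libraries. The part of any of these cell types in the Hsd17b11 values was not tested.

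Hsd17b4 (chr18:50128201-50196270, plus strand) codes for the peroxisomal multifunctional enzyme that shortens very long fatty acids and oxidizes estradiol. In castrated replicates 1 to 3 it had 98.9, 100.2 and 131 CPM, and in intact replicates 1 and 2 it had 87.5 and 74.7 CPM. The groups did not overlap on CPM, on TMM-scaled CPM or on TPM. The means were 110 ± 18.3 and 81.1 ± 9.04 CPM (SD), and the log2 fold change was 0.42 ± 0.21 (95% interval -0.12 to 0.96, adjusted p = 0.417, edgeR). Castrated replicate 3, the library with hepatocyte transcripts, was the highest, and the log2 fold change was 0.28 without it and 0.34 without intact replicate 2.

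Hsd17b10 (chrX:152001896-152004442, plus strand) differed in the other direction. This mitochondrial enzyme takes part in isoleucine breakdown and is a subunit of the mitochondrial RNase P. Its values were 51.0, 43.9 and 58.2 CPM in castrated replicates 1 to 3, and 60.3 and 74.8 CPM in intact replicates 1 and 2. All 3 castrated libraries were below both intact libraries on the 3 scales used, with castrated replicate 3 close to intact replicate 1. The log2 fold change was -0.44 ± 0.24 (95% interval -1.03 to 0.16, adjusted p = 0.442, edgeR), -0.54 without castrated replicate 3 and -0.24 without intact replicate 2.

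Hsd17b12 (chr2:94032697-94157909, minus strand), the ketoacyl-CoA reductase of fatty acid elongation and the most abundant member, overlapped between the groups. It had 177, 143 and 124 CPM in castrated and 224 and 128 CPM in intact libraries. Intact replicate 1 was the highest and castrated replicate 3 the lowest library. The log2 fold change of -0.26 ± 0.29 (adjusted p = 0.712, edgeR) became 0.14 without intact replicate 1, -0.60 without intact replicate 2 and -0.15 without castrated replicate 3.

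Since these 4 transcripts had high counts in every library, their ratios within a library were compared, which does not depend on library scaling. Of the 6 possible pairs, 2 had ratios of TPM that did not overlap between the groups, and both involved Hsd17b10. This follows from the levels, as Hsd17b10 was lower and Hsd17b4 and Hsd17b11 higher in castrated libraries without overlap on TPM, and it adds no separate result. The ratio of Hsd17b4 to Hsd17b10 was 0.660, 0.776 and 0.767 in castrated replicates 1 to 3, and 0.493 and 0.340 in intact replicates 1 and 2. That of Hsd17b10 to Hsd17b11 was 1.14, 0.628 and 0.786 in castrated and 1.85 and 1.77 in intact libraries. The intact libraries thus held more Hsd17b10 than Hsd17b11 transcript per length, as did castrated replicate 1, and castrated replicates 2 and 3 held less. The sum of the 4 transcripts was 550, 581 and 609 TPM in castrated and 616 and 447 TPM in intact libraries, with intact replicate 1 the highest of the 5 and intact replicate 2 the lowest.

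**Figure D4:**
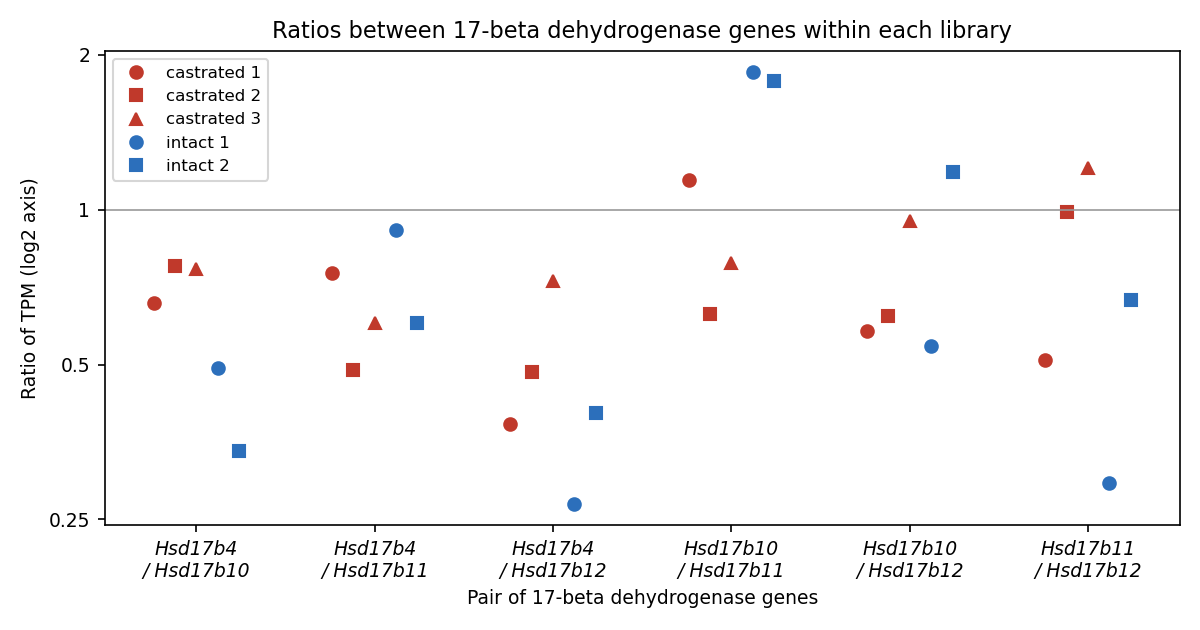
Ratios of TPM within each library for the 6 pairs of 17β-hydroxysteroid dehydrogenase genes, on a log axis with 1 point per library. The castrated libraries lie above the intact ones for Hsd17b4 over Hsd17b10 (0.660 to 0.776 against 0.340 and 0.493) and below them for Hsd17b10 over Hsd17b11 (0.628 to 1.14 against 1.77 and 1.85), and overlap for the other 4 pairs.

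The enzymes of the first steps of steroid synthesis were rare. Cyp11a1 (chr9:57998024-58027031, plus strand) had 116, 82 and 60 counts in castrated replicates 1 to 3, and 78 and 10 counts in intact replicates 1 and 2, or 4.14, 4.33 and 2.93 CPM and 3.62 and 0.438 CPM. Intact replicate 2 was low, as for Srd5a1, and intact replicate 1 lay within the castrated range. The log2 fold change was 0.93 ± 0.89 (adjusted p = 0.666, edgeR), 1.09 without castrated replicate 3, 3.03 without intact replicate 1 and 0.07 without intact replicate 2. Cyp17a1 (chr19:46667165-46673000, minus strand), the target of abiraterone, had 1, 1 and 60 counts in castrated replicates 1 to 3, and 0 and 7 in intact replicates 1 and 2. Castrated replicate 3 held 87.0% of its counts, it did not pass the filter, and the 0 in intact replicate 1 allows up to 0.139 CPM. Whether these 60 counts belong to tumor cells or to the tissue that gave the hepatocyte transcripts of that library was not tested.

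Markers of the adrenal cortex and of Leydig cells were detected in part. The sum of this list of 12, which includes Cyp11a1 and Cyp17a1, was 20.4, 7.38 and 25.9 TPM in castrated and 27.96 and 3.28 TPM in intact libraries, led by Akr1b7 (6.29 TPM on average, 15.3 TPM in castrated replicate 3) and Star. Star had 345, 22 and 23 counts in castrated replicates 1 to 3 and 525 and 76 counts in intact replicates 1 and 2. Insl3, a hormone gene of Leydig cells, had 29 counts (5.48 TPM) in intact replicate 1 and at most 4 elsewhere, so that castrated replicate 1 and intact replicate 1 had the most Star and intact replicate 1 the most Insl3. The part of such cells in the Cyp11a1 values was not tested. Hsd3b6 was at 0 in all libraries, Nr5a1, the master regulator of steroidogenic cells, had 1 count in intact replicate 2 and 0 elsewhere, and Cyp11b1 had 1 count each in castrated replicates 1 and 3. Lhcgr was at 0 in every library but castrated replicate 3, Hsd3b1 likewise, Cyp21a1 at 0 in intact replicate 1, and Mc2r at 0 in intact replicate 2. Of the 12 genes of early steroidogenic steps, 1, Hsd3b7, which acts in bile acid synthesis, passed the filter and was tested. Its levels were 2.26, 2.66 and 1.87 TPM in castrated and 10.8 and 1.47 TPM in intact libraries (log2 fold change -1.42 ± 0.78, adjusted p = 0.448, edgeR, and 0.30 without intact replicate 1). Hsd3b5, Hsd3b6 and Cyp19a1, which codes for aromatase, were at 0 in all 5 libraries, as was Shbg among the carriers.

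Across the other genes of steroid delivery, conversion, conjugation and transport, 71 were listed, 70 were in the table and 42 were tested. Of these 42, 27 had a positive and 15 a negative log2 fold change, with a median of 0.21. Among all genes tested, 47.9% were positive and the median was -0.03. None was called with adjustment (smallest adjusted p = 0.320, edgeR), 8 (19.05%) had an unadjusted p under 0.05, against 14.2% of all genes, and 10 were higher and 3 lower without overlap on CPM, against 17.8% and 15.3% of all genes. Of the 8, 7 were higher in castrated tumors and 1 was lower. Without castrated replicate 3, 4 genes had an unadjusted p under 0.05, beside 6.51% of all genes, and 3 of them (Hsd11b1, Papss2 and Slco2b1) were among the 8. Without intact replicate 1 the number was 15, beside 21.9%.

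Hsd11b1, which regenerates active glucocorticoid, had 145, 212 and 149 TPM in castrated replicates 1 to 3, and 90.4 and 27.4 TPM in intact replicates 1 and 2. Its log2 fold change was 1.49 ± 0.45 (adjusted p = 0.323, edgeR), 1.56 without castrated replicate 3, 0.93 without intact replicate 2 and 2.30 without intact replicate 1. Papss1 and Papss2 make the sulfate donor of all sulfotransferases, and did not overlap between groups. Papss1 had 95.3, 113 and 116 TPM against 58.8 and 59.9 TPM, and Papss2 had 18.2, 18.3 and 25.2 TPM against 9.60 and 7.65 TPM. All 3 castrated libraries were above both intact libraries for either gene. The log2 fold change of Papss1 was 0.66 without castrated replicate 3 and 0.91 without intact replicate 2, and that of Papss2 was 0.95 and 1.13. Slco2b1, an uptake carrier for steroid sulfates that macrophages also express, had 10.8, 23.2 and 34.6 TPM in castrated and 3.72 and 4.52 TPM in intact libraries (log2 fold change 2.31 ± 0.59, adjusted p = 0.320, edgeR, 1.87 without castrated replicate 3 and 2.66 without intact replicate 2). Sult1a1, a phenol sulfotransferase abundant in liver, had 30.1, 40.3 and 153 TPM against 19.997 and 5.37 TPM. Castrated replicate 3 was the highest, and the log2 fold change of 2.54 was 1.44 without it, 1.93 without intact replicate 2 and 3.48 without intact replicate 1.

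Ugt2b34, a glucuronosyltransferase, had 25.2, 114 and 195 TPM in castrated and 23.2 and 10.4 TPM in intact libraries, with castrated replicate 1 close to intact replicate 1. Its log2 fold change of 2.67 was 1.97 without castrated replicate 3 and 2.30 without intact replicate 2. Akr1c14, which reduces dihydrotestosterone, had the highest log2 fold change of the pathway, 3.43 ± 1.42 (adjusted p = 0.362, edgeR), from 1.18, 1.04 and 11.3 TPM against 0.4996 and 0.283 TPM. It passed the filter only through the castrated libraries, where it was high, and was 1.40 without castrated replicate 3. Hsd17b2, which inactivates testosterone and estradiol, had a log2 fold change of 2.698 with castrated replicate 3 and -1.80 without it, as 209 of its counts lay there and 4, 3, 0 and 23 in the other libraries. The Akr1c, Hsd3b and Ugt2b genes belong to families of similar copies that could share reads, which was not tested.

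The most abundant genes of the pathway were the electron donors Cyb5a, Por and Cyb5b, the glucuronidase Gusb, which releases glucuronidated steroids, and the mitochondrial cholesterol-binding protein gene Tspo. Cyb5a, which promotes the lyase reaction of CYP17A1, had 413, 376 and 627 TPM in castrated and 313 and 181 TPM in intact libraries (log2 fold change 0.85 ± 0.31, adjusted p = 0.340, edgeR, 0.58 without castrated replicate 3 and 0.62 without intact replicate 2). Its outer mitochondrial membrane relative Cyb5b had 198, 120 and 117 TPM against 224 and 321 TPM, with a log2 fold change of -1.09 ± 0.40 (adjusted p = 0.340, edgeR), -0.97 without castrated replicate 3 and -0.59 without intact replicate 2. All castrated libraries were above the intact ones for Cyb5a and below them for Cyb5b. Por had 245, 205 and 216 TPM against 329 and 76.3 TPM, Gusb 128, 319 and 171 against 138 and 135 TPM, and Tspo 180, 183 and 176 against 145 and 159 TPM, with adjusted p from 0.672 to 0.931. Lrp2, an endocytic receptor for carrier-bound steroids, had 18.2 TPM in intact replicate 2 and at most 0.5004 TPM in the others, and Star, which brings cholesterol to CYP11A1, had 6.999, 0.691 and 0.643 TPM in castrated and 14.4 and 1.62 TPM in intact libraries. These 2 had the lowest log2 fold changes, -5.47 and -1.49, and both rested on 1 library, as that of Lrp2 was 4.12 without intact replicate 2 and that of Star 0.47 without intact replicate 1.

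**Figure D5:**
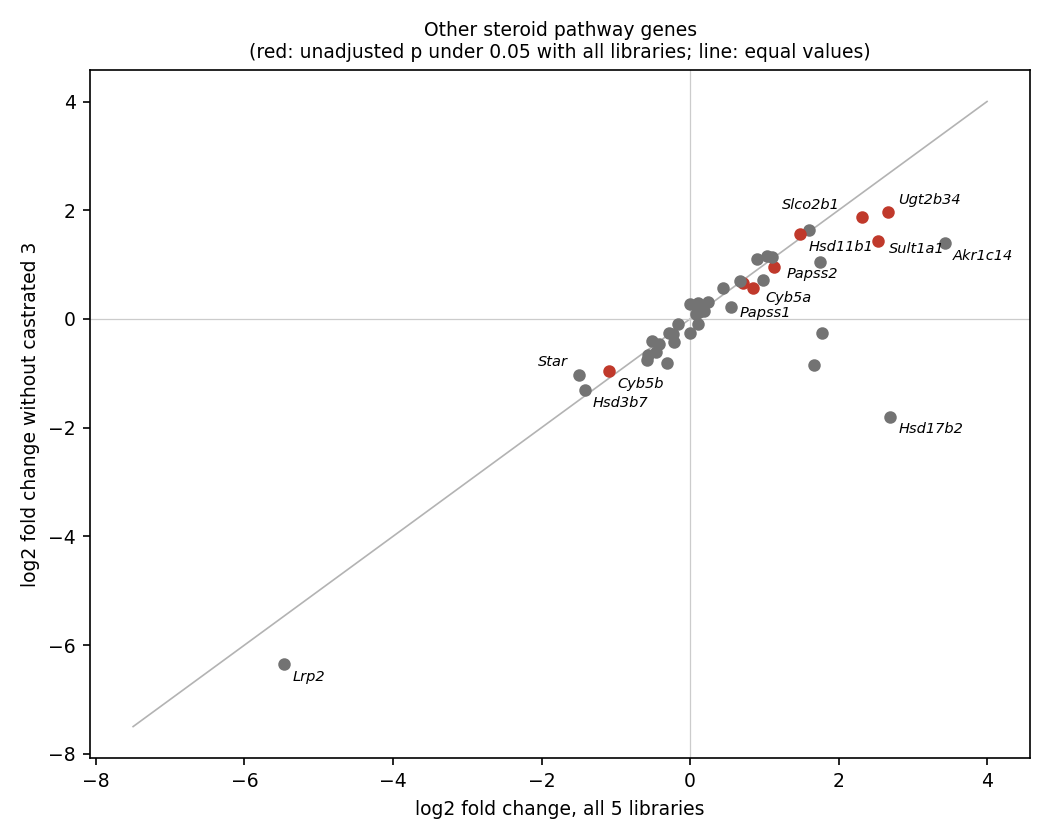
Log2 fold change of the 42 other steroid pathway genes tested, with all 5 libraries (horizontal) and without castrated replicate 3 (vertical), with the line of equal values. Red points are the 8 genes with an unadjusted p under 0.05, and Hsd17b2 lies farthest from the line, at 2.698 with and -1.80 without that library.

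Among 28 pathway genes in the table that did not pass the filter, which asks for more than 1 CPM in 2 libraries, 4 were at 0 in all libraries and 15 had most of their counts in castrated replicate 3. The filter leaves out genes that are high in a single library, which favours such a pattern. The share among all untested genes was not computed, so this number is only a description. It includes Cyp11b2, which had 1 count in castrated replicate 3 and 0 elsewhere. Akr1c6, a liver 17β-hydroxysteroid dehydrogenase, had 2635 counts there and 12, 0, 2 and 0 counts in castrated replicates 1 and 2 and intact replicates 1 and 2. Akr1c18, which inactivates progesterone, had 1264 counts there and at most 16 in the other libraries, and Hsd17b13, a lipid droplet protein of hepatocytes, had 159 and at most 1. Hsd3b3 had 71 counts there and 1, 0, 0 and 0 elsewhere. These 4 were named for their counts in castrated replicate 3, where Alb was also high, so being high there follows from the choice. The part of hepatocyte transcripts in their counts was not tested.

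Of the 16 androgen response genes listed, 10 were tested, 7 with a positive and 3 with a negative log2 fold change, beside 47.9% positive among all genes tested. Genes that did not pass the filter are outside this count. They include Pbsn and Tgm4, which had 28976 counts in intact replicate 2 and at most 12 in any other library. Fkbp5, a cochaperone gene induced by androgens and glucocorticoids, had 43.4, 28.1 and 38.2 TPM in castrated and 56.0 and 8.25 TPM in intact libraries. Its log2 fold change was 0.20 ± 0.68 (adjusted p = 0.914, edgeR), -0.58 without intact replicate 2 and 1.83 without intact replicate 1. Fkbp5 was lowest in intact replicate 2 and highest in intact replicate 1, so that the intact libraries enclosed the castrated ones. Tmprss2, a membrane protease gene induced by androgens in the prostate, had 124, 155 and 126 TPM in castrated and 182 and 179 TPM in intact libraries, a log2 fold change of -0.57 ± 0.23 (adjusted p = 0.359, edgeR), with no overlap. That value was -0.53 without castrated replicate 3 and -0.40 without intact replicate 2. Intact replicate 2 had the highest Tgm4 and Pbsn of the 5 libraries, and the lowest Srd5a1 and Cyp11a1. Hsd17b4, Por and the sum of epithelial markers were also lowest there, and Hsd17b10 was highest. Low values in that library were thus not particular to Srd5a1 and Cyp11a1, and a link to the secretory genes was not tested.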

How the data were processed

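Ribosomal RNA-depleted libraries were sequenced from prostate tumors of 3 castrated mice and 2 intact mice, all TripleTg. The authors used Trimmomatic 0.39 to trim paired-end reads, STAR 2.7.9 to align to mm10 and HTSeq 2.0.2 to count, and deposited the raw counts per gene, not normalized. Whether counting used strand is not given in the sources used here, so overlapping and antisense genes are uncertain. The deposited gene length in kilobases served only to compute TPM. Groups came from the labels, and no library was left out.

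CPM was taken over the deposited total of each library, which ranged from 18951782 to 28015507 counts. Intervals on CPM and the limit of 3 counts cover counting error only. The common dispersion between mice was 0.238, so differences between mice set the precision of all but rare genes. Each library is taken as 1 mouse, and no pair within a group was a repeat of the same library (chi-square per gene 133 or more).

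Genes above 1 CPM in at least 2 libraries entered edgeR 4.0.16 (R 4.3.3, TMM scaling, quasi-likelihood F-test, Benjamini-Hochberg adjustment over 14612 genes), the test and thresholds of the study's methods, with counts in place of TPM. The procedure was tested on simulated counts. Alternatives used DESeq2 1.42.0, limma 3.58.1 (voom), the likelihood ratio test, 2 other scalings, 2 other filters, a replicate block and leaving out each library. Same-numbered replicates are different mice, with deviations that correlated at 0.149 and -0.045. Transcript similarity was searched with BLAST 2.17.0 (95% identity over 100 bases) against GENCODE vM21.

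The members and the gene lists were chosen with earlier results of these data known. The lists were the pathway genes, androgen response genes and markers of adipocytes, macrophages, smooth muscle, fibroblasts, endothelium, T cells, epithelium, basal epithelium, prostate secretory cells, seminal vesicle, adrenal and Leydig cells, neuroendocrine cells, proliferation and, added after values were seen, hepatocytes. Named were all members, the 5 most abundant pathway genes, the 4 highest and 4 lowest log2 fold changes, Pbsn, Fkbp5 and Tmprss2, and the most abundant and the undetected markers. Pathway genes named for an unadjusted p, for counts in castrated replicate 3 or at 0, and other markers and androgen response genes, were chosen after their values were seen. Sts and Hsd17b8 were not analysed here, and some androgen response genes are counted in their list but not reported here.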

Additional observations from a re-analysis of the deposited data

How the results depend on the processing

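With the edgeR quasi-likelihood test 0 genes were called, and the other scalings, filters and limma voom also called 0. DESeq2 called 989 genes and the likelihood ratio test 369. Leaving out 1 library gave 0 to 1 genes called, the 1 being without intact replicate 1. The replicate block called 0 genes and lowered the number with an unadjusted p under 0.05 from 2079 to 940. No intact library shares the block of castrated replicate 3, so that library does not add to the group difference in this fit. That number was 1025 without castrated replicate 2, 951 without castrated replicate 3 and 3206 without intact replicate 1. Of 103 member fold changes under the alternatives, 101 kept their direction, none had an adjusted p under 0.05, and 2 changed sign when 1 library was left out, Srd5a1 (-0.19 without intact replicate 2, with a range from there to 1.41) and Hsd17b12 (0.14 without intact replicate 1, with a range from -0.60 up to there). The cause was not tested. With the replicate block the log2 fold changes were 0.55 for Srd5a1, 0.77 for Srd5a2, 0.24 for Srd5a3, 0.28 for Hsd17b4, -0.53 for Hsd17b10, 0.57 for Hsd17b11, -0.11 for Hsd17b12 and 1.65 for Cyp11a1. The number of members with an unadjusted p under 0.05 was 0 under every alternative with all 5 libraries, and 0 to 2 when 1 library was left out. It was 1 without castrated replicate 1 (Hsd17b11) and 2 without intact replicate 1 (Srd5a1 and Cyp11a1). The alternatives with 1 intact library assume that it varies like the castrated ones. The number of pathway genes with an unadjusted p under 0.05 was 8 with all libraries. Under alternatives chosen after seeing the data, it was 3 with the block and 4 without castrated replicate 3. For Srd5a2, with 104 counts in all, and Cyp17a1, with 69, depth limits what can be compared.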

Other observations

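All 10 proliferation genes were lower in castrated tumors, without overlap on CPM (beside 15.3% of all genes) and with an unadjusted p under 0.05 (beside 5.93%), and summed to 34.8, 48.1 and 61.7 TPM in castrated replicates 1 to 3, and to 154 and 145 TPM in intact replicates 1 and 2. Top2a, the DNA topoisomerase of dividing cells, was the most abundant of them. Neuroendocrine markers summed to 26.2, 40.2 and 40.1 TPM in castrated and 9.34 and 2.82 TPM in intact libraries, led by Eno2, which other cells also express. Neurod1 was at 0 in every library but castrated replicate 1. T cell markers, led by Cd3g, summed to 25.1, 90.3 and 88.8 TPM in castrated and 15.3 and 44.2 TPM in intact libraries. Endothelial markers, led by Cdh5, had 365, 216 and 261 TPM against 371 and 122 TPM, and basal epithelial markers, led by Krt15, had 647, 651 and 1220 TPM against 420 and 910 TPM, so that the groups overlapped in these 3 lists. Seminal vesicle markers, led by Svs4, summed to 20.04 TPM in intact replicate 2 and to at most 0.691 TPM elsewhere, with all 7 in the table at 0 in castrated replicate 2.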
